A study of Homo sapiens with 20 samples.

Results

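Cytosolic ribosomal protein genes encode the protein part of the ribosome that translates nuclear mRNAs. They were taken here as protein-coding genes of chromosomes 1 to 22 and X, in GENCODE 44 on GRCh38, whose symbols are RPL or RPS followed by a digit, or RPLP0, RPLP1, RPLP2 or RPSA. RPS6K kinase genes and the paralogs whose symbols end in L, L1 or L2 were left out. The symbols found 81 of 19970 genes. Of these, 77 are ribosomal protein genes, 46 of the large and 31 of the small subunit, and 4 are not: the read-through genes RPL17-C18orf32, RPL36A-HNRNPH2 and RPS10-NUDT3, and RPS19BP1, which encodes a protein that binds RPS19. The text below is about the 77, none of which was chosen by its binding.

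Ribosomal proteins are made in near-equal numbers and assemble with ribosomal RNA into the small and the large subunit in the nucleolus. Their genes are among the most highly transcribed in dividing cells of any lineage, and many carry small nucleolar RNAs in their introns. Their mRNAs mostly begin with a C and a run of pyrimidines, the terminal oligopyrimidine or TOP motif, through which mTOR signaling controls their translation.

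Binding of transcription factors was measured by ChIP-seq in 4 established human cancer lines treated with 1 µM AU-15330, which as a PROTAC causes loss of SMARCA2 and SMARCA4 (the ATPases of mSWI/SNF chromatin remodelers), or with its solvent DMSO. NCI-H526 and NCI-H1048 are lines of SCLC-P, the tuft cell-like small cell lung cancer driven by the POU domain factor POU2F3, and MM1.S and NCI-H929 are multiple myeloma lines that depend on the coactivator POU2AF1 and on the factor IRF4. Each of the 10 experiments has 1 AU-15330 and 1 DMSO library, so treatments are compared without replicates and without a test. The labels give 4 to 6 h of treatment, and the titles of both HA experiments in NCI-H1048 cells give 6 h for AU-15330. The experiments were POU2F3 by its own antibody in NCI-H526 and in NCI-H1048 cells, HA-POU2F3 in both lines, HA-POU2AF2 in NCI-H526 cells, a further HA experiment in NCI-H1048 cells with a tag carrier left unnamed in the labels, and POU2AF1 and IRF4 in each myeloma line. By the study's methods, the HA-tagged proteins are dTAG fusions delivered by lentivirus to Cas9-expressing cells in which the endogenous gene had been knocked out, so HA libraries and POU2F3 antibody libraries differ in their cells as well as in antibody. The peak caller's command names no control, and no input, IgG or untagged-cell library is among the 20 used here.

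The deposited lists hold 1326 to 89850 regions on the chromosomes used, and AU-15330 lists had 0.0304 to 1.35 times as many as the DMSO list of the same experiment. The number of tags behind a list, worked out from the pileup of its background, was 17.3 to 53.6 M tags in 18 libraries and could not be estimated for the HA experiment of unnamed tag. Lists of lineage genes followed the labelled lines: with DMSO, 7 to 11 of 12 tuft cell markers had a promoter region in SCLC-P lists against 4 to 6 in myeloma lists, and 8 or 9 of 10 plasma cell markers had one in myeloma lists against 1 to 4 in SCLC-P lists.

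To show where the regions lie, the starts of 11 of the genes are printed, namely RPS12, RPL22, RPS3A, RPL11, RPL3 and RPL4, which had a region in at least 16 of the 20 lists, and RPLP0, RPS19, RPL38, RPL29 and RPS7, whose values are described in the text. Sequences are from RefSeq on GRCh38, each from 60 bases before the annotated start to the 10th base of the transcript, and capitals mark the unbroken run of C and T that holds the start base.
RPS12 (chr6:132814509-132814578, plus strand): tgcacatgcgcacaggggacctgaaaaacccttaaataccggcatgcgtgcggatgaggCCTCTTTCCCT
RPL22 (chr1:6199586-6199655, minus strand): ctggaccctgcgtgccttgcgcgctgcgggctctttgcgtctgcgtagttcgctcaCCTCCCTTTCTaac
RPS3A (chr4:151099568-151099637, plus strand): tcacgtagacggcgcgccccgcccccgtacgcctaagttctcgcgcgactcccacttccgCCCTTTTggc
RPL11 (chr1:23691746-23691815, plus strand): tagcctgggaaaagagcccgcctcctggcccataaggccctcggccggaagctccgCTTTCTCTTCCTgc
RPL3 (chr22:39319614-39319683, minus strand): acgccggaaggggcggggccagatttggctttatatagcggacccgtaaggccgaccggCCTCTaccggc
RPLP0 (chr12:120201102-120201171, minus strand): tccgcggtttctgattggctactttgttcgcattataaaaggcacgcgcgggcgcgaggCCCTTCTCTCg
RPS19 (chr19:41860195-41860264, plus strand): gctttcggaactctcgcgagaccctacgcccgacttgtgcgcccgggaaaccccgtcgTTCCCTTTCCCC
RPL38 (chr17:74203618-74203687, plus strand): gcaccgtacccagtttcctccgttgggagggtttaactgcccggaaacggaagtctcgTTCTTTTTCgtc
RPL29 (chr3:51995886-51995955, minus strand): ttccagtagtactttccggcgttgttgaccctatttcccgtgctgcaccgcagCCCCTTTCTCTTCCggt
RPS7 (chr2:3575200-3575269, plus strand): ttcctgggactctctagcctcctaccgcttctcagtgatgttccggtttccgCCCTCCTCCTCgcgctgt
RPL4 (chr15:66504846-66504915, minus strand): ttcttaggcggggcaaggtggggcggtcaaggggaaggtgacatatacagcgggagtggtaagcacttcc
RPL4 starts on a purine and therefore has no capitals. Promoter entries, from 250 bases before to 50 bases after the start, were found for 62 of the 77 genes. A C at the start followed by at least 4 pyrimidines was present in 46 of the 62, or 74.2%, against 4.71% of 15315 promoters of protein-coding genes. Genes without an entry include RPL23, RPL23A, RPL30, RPL37, RPL5, RPL7, RPL8, RPS15A, RPS2 and RPS20.

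The core of the octamer to which POU2F proteins bind, TTTGCAT, was found on either strand in the promoters of 2 of 62 ribosomal protein genes (3.23%), against 3.59% of all promoters. Those are RPL22, with its first base at -152 from the start, and RPS23, at -196 and -129. Both are shown around 1 match each, with the octamer core or its reverse complement in capitals and 15 bases on each side.
RPL22: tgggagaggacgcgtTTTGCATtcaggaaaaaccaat
RPS23: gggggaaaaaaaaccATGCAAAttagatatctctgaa
RPL22 had a region in 17 of the 20 lists and RPS23 in 12, while RPS12, the gene with the most at 18, holds no octamer core in this window. The IRF-type pattern GAAANNGAA was in 12 of 62 (19.4%) against 6.85% of all promoters, the ETS core CCGGAAG in 21 (33.9%) against 14.7%, the YY1-type ATGGCGG in 14 (22.6%) against 8.17%, and CTCGCGAG in 6 (9.68%) against 1.67%. The Sp/KLF box GGGCGG was in 35 (56.5%) against 61.8%, CCAAT in 20 (32.3%) against 36.6%, the E-box CACGTG in 3 (4.84%) against 8.86%, and TATAAA in 5 (8.06%) against 9.43%. All patterns were searched on both strands, none contains another, and a match describes letters only. Read on the other strand, the fixed letters of the IRF-type pattern are all C or T, so it can match within the run that holds the start base. Such matches begin at -2 in RPL38, RPLP2, RPS16 and RPS19, at -3 in RPS27A and at -9 in RPL7A. RPL38 also has a match at -17, outside its run. The 12 of 62 therefore include matches that are part of such runs. Median GC content was 59.7% in the promoters of ribosomal protein genes and 63.7% in all.

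A gene was called bound in a list where any region of the list touched the 1 kb on either side of one of its annotated starts. The genes have a median of 8 annotated starts, against 5 for all protein-coding genes, and the counts hardly depend on this: taking the canonical start alone changed no count of bound ribosomal protein genes by more than 2. In the account of each experiment the share of all protein-coding genes is printed beside the counts, as the background against which they are read. The share of bound ribosomal protein genes was above that background in 19 of 20 lists, the exception being IRF4 with AU-15330 in NCI-H929 cells.

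**Figure D1:**
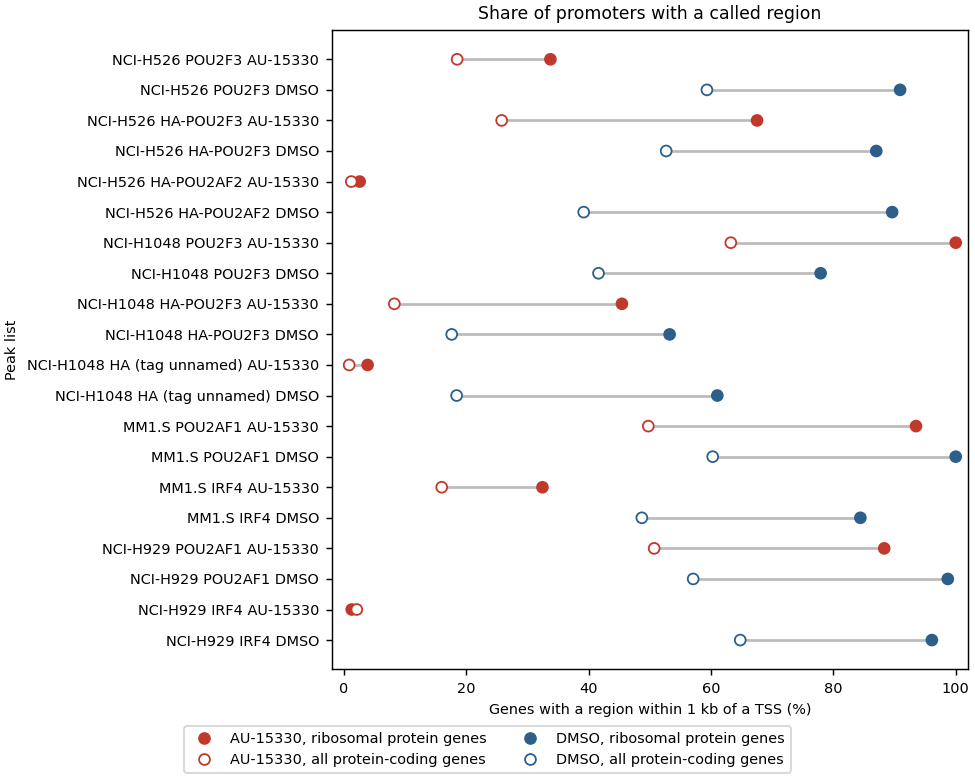
Share of genes with a region within 1 kb of an annotated start (x axis, percent) in each of the 20 peak lists (y axis), AU-15330 in red above DMSO in blue, for the 77 ribosomal protein genes (filled) and for all 19970 protein-coding genes (open). The filled point lies to the right of the open one in 19 lists, and the share of ribosomal protein genes spans 1.30% to 100% with AU-15330 and 53.2% to 100% with DMSO.

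With DMSO, ribosomal protein genes were bound in every line and by every protein. Of the 77 genes, each was in at least 6 of the 10 DMSO lists, 13 were in all 10 and 27 in 9, with a median of 9 lists against 5 for all genes. Of all genes, 22.8% were in none and 5.00% in all 10. Among the 13 are RPS12, RPL22, RPS3A, RPL11, RPL3, RPS26, RPL10A, RPS6, RPS14, RPL13A, RPL7A and RPL15, and the 4 in only 6 lists are RPL32, RPL7, RPL23A and RPL36A. In at least 1 DMSO list, 77 genes were bound in NCI-H526, 74 in NCI-H1048, 77 in MM1.S and 77 in NCI-H929 cells, and 74 were bound in all 4 lines (96.1%), against 41.0% of all genes. With AU-15330, 58, 77, 72 and 68 genes were bound in these lines, and 50 in all 4 (64.9%), against 24.4% of all genes. Lists of the same line share cells and are not independent, and the number of lists per line differs.

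Over all 20 lists a gene was bound in 9 to 18, with a median of 13, against a median of 8 for all genes. RPS12, which in fruit flies takes part in cell competition, was in 18, and RPL22, an RNA-binding protein of the large subunit, was in 17. Genes in 16 lists include RPS3A, RPL11, RPL3, RPL18, RPL4 and RPL37. RPL36A, RPL39, RPL19 and RPL17 were in 9, the fewest. None of the 77 was missing from every list or from every DMSO list. For 20 genes another protein-coding start lies within 1 kb of the canonical start, as with VPS52 beside RPS18, MED22 beside RPL7A, and the B cell kinase gene BTK beside RPL36A, and a region there cannot be assigned to either gene. Of the remaining 57, 48 to 57 were bound with POU2AF1 and 44 to 57 with the POU2F3 antibody, apart from 19 in NCI-H526 cells with AU-15330. In the HA and IRF4 lists 31 to 54 were bound with DMSO. With AU-15330, HA-POU2F3 had 40 in NCI-H526 and 28 in NCI-H1048 cells, and HA-POU2AF2 had 1. Of those bound with DMSO, IRF4 kept 17 in MM1.S and 1 in NCI-H929 cells, and the unnamed HA tag 2. The share bound was above that of all genes in 19 of 20 lists.

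**Figure D2:**
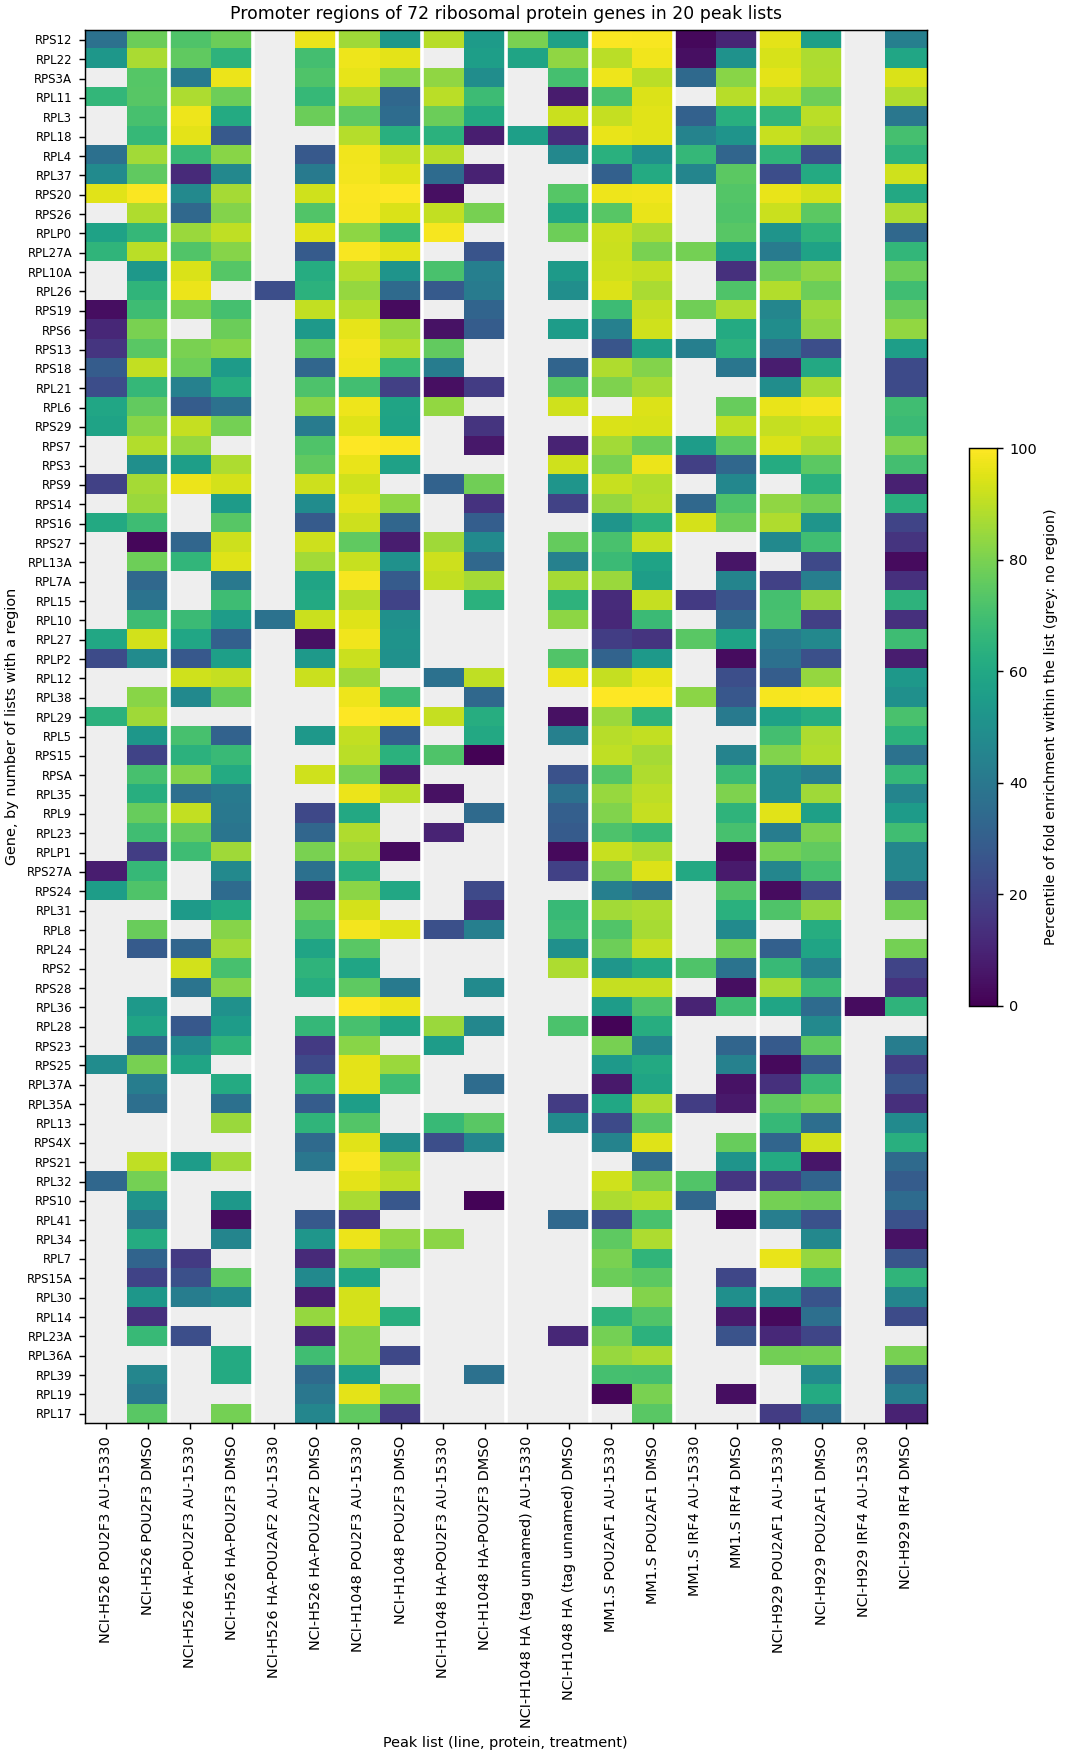
Each of 72 of the 77 ribosomal protein genes (rows, from the most to the fewest lists) in each of the 20 peak lists (columns, AU-15330 left of DMSO within a pair); color gives the percentile of the fold enrichment of the gene's strongest region within its list and grey means no region. The columns of HA-POU2AF2, of the unnamed HA tag and of IRF4 in NCI-H929 cells are nearly all grey with AU-15330, with 2, 3 and 1 genes bound, whereas the POU2F3 antibody in NCI-H1048 cells with AU-15330 has no grey cell.

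In NCI-H526 cells the POU2F3 antibody marked 26 of the 77 genes with AU-15330 (33.8%; 18.5% of all genes) and 70 with DMSO (90.9%; 59.3% of all genes). All 26 were among the 70, which is 37.1% of those bound with DMSO against 30.6% of all genes so bound, and none of the 7 others was bound with AU-15330 (0.887% of all genes). The depths differ, at 26.9 M tags with AU-15330 and 53.6 M with DMSO. With unchanged pileup per tag, 67 of the 70 (95.7%) would still pass the p-value of the weakest AU-15330 region, 41 of them among the 44 no longer called. Of all genes bound with DMSO, 90.4% would pass in the same way. This estimate runs high because regions enter a list by a threshold. RPS20, of the small subunit, had the highest fold in both lists, 8.87 with AU-15330 and 14.6 with DMSO. RPL11 (5.37) and RPL27A (5.30) followed with AU-15330, RPL27 (9.20) and RPS18 (8.51) with DMSO. The strongest DMSO regions with no AU-15330 region were those of RPS21 (fold 8.37), RPS7 (7.88), RPS26 (7.80) and RPS14 (7.21).

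For HA-POU2F3 in the same line, 52 genes were bound with AU-15330 (67.5%; 25.8% of all genes) and 67 with DMSO (87.0%; 52.7%), at 33.6 and 29.0 M tags. Of the 67, 47 were bound in both lists (70.1%, against 44.4% of all genes), and 5 of the other 10 were bound with AU-15330 alone, against 5.14% of all genes not bound with DMSO. RPL3 (fold 7.75), RPL26 (7.49) and RPS9 (7.35) led the AU-15330 list, and RPS3A (10.6), RPL13A (9.45) and RPS9 (8.80) the DMSO list. The 5 genes bound with AU-15330 alone were RPL26, RPS7 (5.31), RPS25 (4.37), RPL23A (3.65) and RPL7 (3.55). Those bound with DMSO alone included RPL13 (6.92), RPL8 (6.52), RPL17 (6.25) and RPS6 (6.05).

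HA-POU2AF2, the tagged coactivator of POU2F3, was at 2 genes with AU-15330 (2.60%; 1.23% of all genes) and at 69 with DMSO (89.6%; 39.2%). The 2 are RPL10 (fold 4.36) and RPL26 (4.07). Both were also bound with DMSO, which is 2.90% of 69 against 2.45% of all genes, and none of the 8 others was bound with AU-15330 (0.437% of all genes). The depths were 17.3 M tags with AU-15330 and 46.9 M with DMSO. With unchanged pileup per tag, 42 of the 69 (60.9%) would pass in the AU-15330 library, against 49.4% of all genes bound with DMSO. Depth therefore limits what can be said of the rest. RPS12 (8.68), RPLP0 (7.96), RPSA (7.17), RPS20 (7.14) and RPS9 (7.11) had the strongest DMSO regions, none of them called with AU-15330.

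The POU2F3 antibody gave the reverse order in NCI-H1048 cells. All 77 genes were bound with AU-15330 (100%; 63.2% of all genes) and 60 with DMSO (77.9%; 41.6%), from 40.6 and 30.6 M tags. All 60 were kept, against 96.6% of all genes bound with DMSO, and all 17 others were bound with AU-15330, against 39.5% of all genes not bound with DMSO. Ribosomal protein genes stood high in the AU-15330 list, with a median percentile of fold of 92.0 and 41 genes at or above the 90th percentile, against 63.0 and 11 genes with DMSO. The median over all bound genes was 82.3 with AU-15330 and 55.6 with DMSO. The same genes led both lists: RPL29 (fold 24.1), RPS7 (21.5) and RPS20 (21.3) with AU-15330, and RPS20 (19.2), RPL29 (14.6) and RPS7 (14.1) with DMSO. The region of RPL29 with AU-15330 covers chr3:51995677-51996145, with its summit at -31 bases from the start printed above. Of the genes bound with AU-15330 alone, RPL30 (10.5), RPL31 (10.5), RPS9 (9.85), RPL23 (7.98) and RPL12 (7.47) had the highest fold.

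For HA-POU2F3 in NCI-H1048 cells, 35 genes were bound with AU-15330 (45.5%; 8.26% of all genes) and 41 with DMSO (53.2%; 17.6%), at 37.0 and 28.5 M tags. Of the 41, 24 were kept (58.5%, against 26.9% of all genes), and 11 of the other 36 were bound with AU-15330 alone, against 4.26% of all genes not bound with DMSO. RPLP0 (8.02), RPL13A (5.69) and RPL29 (5.52) led with AU-15330, and RPL12 (7.95), RPL7A (7.29) and RPS26 (6.46) with DMSO. RPLP0, the base of the ribosomal stalk, was among those bound with AU-15330 alone, at rank 93 of 5969 regions, on chr12:120200991-120201231. RPL4 (5.33), RPL6 (5.04) and RPL34 (4.98) were also among them. Bound with DMSO alone were, by highest fold, RPL15 (5.42), RPL5 (5.24), RPL22 (5.10), RPS28 (4.83) and RPL39 (4.52).

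The HA experiment of unnamed tag in this line had 3 genes with AU-15330 (3.90%; 0.881% of all genes) and 47 with DMSO (61.0%; 18.4%). The 3, RPS12 (fold 4.32), RPL22 (3.94) and RPL18 (3.91), were all bound with DMSO, which is 6.38% of 47 against 3.48% of all genes, and none of the other 30 was bound with AU-15330 (0.295% of all genes). RPL12 (6.10), RPS3 (5.33), RPL6 (5.29), RPL3 (5.21) and RPS2 (4.84) had the strongest DMSO regions, none of them called with AU-15330. These 2 lists lack the summit column and have the column layout of another calling mode, so they have no level, summit or depth, and their folds and percentiles rank regions within each list only.

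In myeloma cells POU2AF1 stayed at most ribosomal protein genes. In MM1.S cells 72 were bound with AU-15330 (93.5%; 49.8% of all genes) and 77 with DMSO (100%; 60.3%), at 26.2 and 30.7 M tags, and the 72 are 93.5% of the 77 against 80.1% of all genes bound with DMSO. A further 3.67% of all genes not bound with DMSO were bound with AU-15330. RPL38 (fold 19.8) and RPS12 (13.0) led with AU-15330, and the same genes led with DMSO, at 17.03 and 13.0. RPL38, whose reduced dose alters skeletal patterning in mice, ranked 17 of 20677 regions with AU-15330, on chr17:74203394-74204006, and 74 of 36603 with DMSO. The 5 genes bound with DMSO alone included RPL6 (8.47), RPL30 (6.17), RPL17 (5.67) and RPS21 (4.11).

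In NCI-H929 cells POU2AF1 was at 68 genes with AU-15330 (88.3%; 50.7% of all genes) and 76 with DMSO (98.7%; 57.1%), at 29.0 and 31.9 M tags. All 68 were among the 76 (89.5%, against 83.7% of all genes), and the 1 remaining gene was not bound in either list (6.77% of all genes not bound with DMSO were bound with AU-15330). RPL38 (12.5), RPS20 (10.1) and RPL6 (10.0) led with AU-15330, and RPL38 (12.5), RPL6 (10.3) and RPS20 (7.77) with DMSO. Of the 8 genes bound with DMSO alone, RPS15A (5.14), RPS9 (4.96), RPL8 (4.90), RPL19 (4.85) and RPL39 (4.47) had the highest fold.

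IRF4 was at far fewer of the genes with AU-15330 in both myeloma lines. In MM1.S cells 25 genes were bound with AU-15330 (32.5%; 16% of all genes) and 65 with DMSO (84.4%; 48.7%), at 39.0 and 31.0 M tags. Of the 65, 24 were kept (36.9%, against 29.4% of all genes), and 1 of the other 12, RPS10 (fold 3.78), was bound with AU-15330 alone, against 3.27% of all genes. RPS16 (5.41) led with AU-15330, where RPL38 had 4.78, and RPS29 (6.53), RPL11 (6.36) and RPS19 (6.16) with DMSO. RPS29, RPL11, RPL35 (5.55), RPL24 (5.36) and RPL6 (5.32) had the strongest DMSO regions that were not called with AU-15330.

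In NCI-H929 cells a single gene was bound by IRF4 with AU-15330 (1.30%; 2.13% of all genes), against 74 with DMSO (96.1%; 64.8%), at 39.4 and 33.7 M tags. It is RPL36, and its AU-15330 region, of fold 3.17, has its summit at -9673 bases from the canonical start, near an upstream start, so that with canonical starts no gene was bound. The share kept was 1.35% of 74, against 3.21% of all genes, and none of the other 3 was bound with AU-15330 (0.142% of all genes). With unchanged pileup per tag, 73 of the 74 would pass in the AU-15330 library. RPS3A (10.0), RPL37 (9.39), RPL11 (8.08) and RPS26 (8.06) had the strongest DMSO regions, none of them called with AU-15330.

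**Figure D3:**
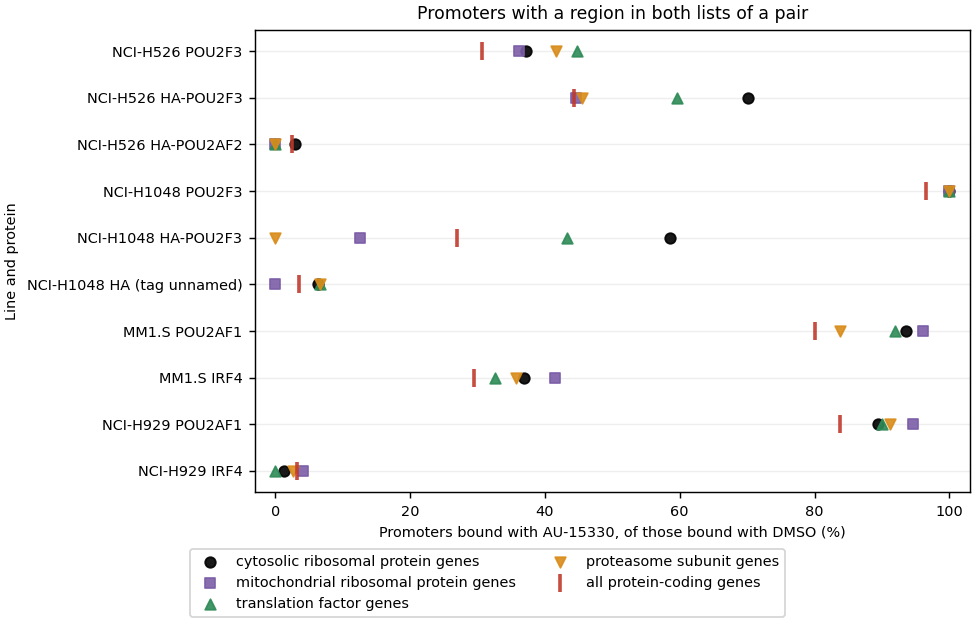
Share of promoters bound with AU-15330 among those bound with DMSO (x axis, percent) in the 10 experiments (y axis), for cytosolic ribosomal protein genes (black circles), mitochondrial ribosomal protein, translation factor and proteasome subunit genes, and all protein-coding genes (red bars). Black circles lie right of the red bar in 9 experiments and reach 70.1% against 44.4% for HA-POU2F3 in NCI-H526 cells and 58.5% against 26.9% in NCI-H1048 cells.

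Fewer ribosomal protein genes were thus bound with AU-15330 than with DMSO in 9 of 10 experiments. This order depended on the length of the lists. With the same number of strongest regions taken from both lists of a pair, 26 genes were bound with AU-15330 and 15 with DMSO for POU2F3 in NCI-H526 cells, 52 and 27 for HA-POU2F3 in NCI-H526 cells, 35 and 7 for HA-POU2F3 in NCI-H1048 cells, 25 and 5 for IRF4 in MM1.S cells, and 68 and 56 for POU2AF1 in NCI-H929 cells. The order changed sign in these 5 experiments, and also for the unnamed HA tag (3 and 1) and IRF4 in NCI-H929 cells (1 and 0). For POU2AF1 in MM1.S cells the counts were 72 (49.8% of all genes) and 73 (50.1%), and for HA-POU2AF2 they were 2 (1.23%) and 6 (1.89%). For POU2F3 in NCI-H1048 cells they were 76 (59.3%) and 60 (41.6%). In every experiment the shares of all genes had the same order as the counts of ribosomal protein genes. Across all regions, those at promoters were kept more often than those away from promoters: for HA-POU2F3 in NCI-H526 cells 32.4% against 9.98%, and for POU2AF1 in MM1.S cells 65.0% against 15.5%. Of the regions at ribosomal protein genes in these experiments, 48 of 76 (63.2%) and 77 of 91 (84.6%) were touched by an AU-15330 region.

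Other gene sets of the translation and protein turnover machinery were counted in the same way. They were taken by symbol alone: MRPL or MRPS, EIF or EEF, and PSMA, PSMB, PSMC or PSMD, each followed by a digit. The translation factor set can therefore hold genes whose products only act on such factors. The share kept for HA-POU2F3 in NCI-H526 cells was 70.1% for cytosolic ribosomal protein genes, and 29 of 65 (44.6%) for mitochondrial ribosomal protein genes, 31 of 52 (59.6%) for translation factor genes and 15 of 33 (45.5%) for proteasome subunit genes. For HA-POU2F3 in NCI-H1048 cells it was 58.5% for cytosolic ribosomal protein genes, and 2 of 16 (12.5%), 13 of 30 (43.3%) and 0 of 5 for the other sets in the same order. With the POU2F3 antibody in NCI-H526 cells it was 37.1%, and 36.2%, 44.8% and 41.7%, and for POU2AF1 in MM1.S cells it was 93.5%, and 96.1%, 91.9% and 83.8%. In number of lists, cytosolic ribosomal protein genes had a median of 13 of 20, translation factor genes 13, mitochondrial ribosomal protein genes 12, proteasome subunit genes 11, tuft cell markers 9 and plasma cell markers 6. These sets are described and not tested against each other.

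The level of binding was compared where a gene was bound in both lists of a pair. The level is the summit pileup of the gene's strongest region over the background pileup of its own library, which scales for depth, and the ratio is AU-15330 over DMSO. Genes that fell under the threshold have no ratio, so ratios describe only what was still called. The strongest region was taken in each list by itself, so at genes with distant starts a ratio can compare 2 different places. For POU2AF1 in MM1.S cells, RPL36 had chr19:5680348-5680951 with AU-15330 and chr19:5690102-5690824 with DMSO (ratio 0.304). For the POU2F3 antibody in NCI-H1048 cells, RPL6 had chr12:112409220-112409853 and chr12:112418708-112419043 (ratio 4.18). For the POU2F3 antibody in NCI-H526 cells the median ratio was 0.721 (quartiles 0.602 and 0.861, 26 genes), against 0.777 over all genes with a region in both lists. It was 0.739 (0.566 and 0.889, 47 genes) against 0.730 for HA-POU2F3 in NCI-H526 cells, and 0.815 (0.733 and 0.993, 24 genes) against 0.823 for HA-POU2F3 in NCI-H1048 cells. POU2AF1 had 0.754 (0.572 and 0.853, 72 genes) against 0.809 in MM1.S cells and 0.838 (0.696 and 1.06, 68 genes) against 0.981 in NCI-H929 cells, and IRF4 in MM1.S cells had 0.751 (0.661 and 0.880, 24 genes) against 0.763. HA-POU2AF2 had 0.815 against 0.915, from 2 genes, and IRF4 in NCI-H929 cells 0.404 against 0.438, from 1 gene. For the POU2F3 antibody in NCI-H1048 cells the median was 2.59 (2.12 and 3.11, 60 genes) against 2.14. Every one of the 60 ratios was above 1, from 1.44 for RPS28 to 6.71 for RPL7A, against 92.0% of ratios over all genes. For the other 8 experiments with levels, ratios above 1 are given with the share above 1 over all genes in brackets. The POU2F3 antibody in NCI-H526 cells had 2 of 26 (23.7%). HA-POU2F3 had 7 of 47 (16.0%) in NCI-H526 and 5 of 24 (24.2%) in NCI-H1048 cells. POU2AF1 had 5 of 72 (22.3%) in MM1.S and 20 of 68 (47.3%) in NCI-H929 cells. IRF4 had 3 of 24 (16.8%) in MM1.S and 0 of 1 (1.93%) in NCI-H929 cells, and HA-POU2AF2 had 1 of 2 (43.2%).

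**Figure D4:**
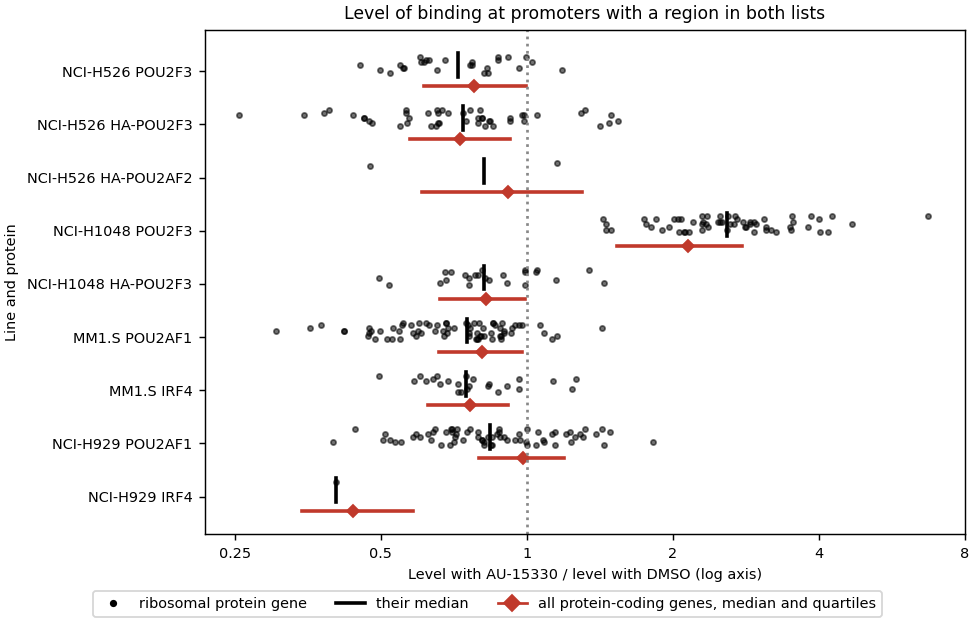
Ratio of the level of binding with AU-15330 to that with DMSO (x axis, log scale) at each ribosomal protein gene bound in both lists of a pair (black points, median as a bar), with the median and quartiles over all protein-coding genes bound in both (red). Medians of ribosomal protein genes lie between 0.404 and 0.838 in 8 experiments and at 2.59 for the POU2F3 antibody in NCI-H1048 cells, where no point is below 1. The value of 0.404 is that of 1 gene, RPL36, for IRF4 in NCI-H929 cells, and HA-POU2AF2 has 2 genes.

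RPS20 had the highest fold in both POU2F3 antibody lists of NCI-H526 cells, and RPL38 in all POU2AF1 lists. For single genes, ranges and medians of the level run over the lists in which the gene was called, which are fewer with AU-15330, so medians of the treatments are not matched and the ratio within an experiment is the comparison. RPS20 was bound in 6 lists with AU-15330, at levels of 6.25 to 95.5 (median 21.0), and in 9 with DMSO, at 10.9 to 51.7 (median 22.1, 8 lists with levels), and 3 of its 5 ratios were below 1. Its POU2F3 level was 15.8 with AU-15330 and 30.2 with DMSO in NCI-H526 cells, and 95.5 with AU-15330 and 51.7 with DMSO in NCI-H1048 cells, so the same promoter was lower with AU-15330 in the first line and higher in the second. RPL38 was bound in 5 lists with AU-15330, at 6.02 to 60.8 (median 36.2), and in 8 with DMSO, at 6.77 to 71.3 (median 11.4), and 4 of its 5 ratios were below 1. Its POU2AF1 level was 60.8 with AU-15330 and 71.3 with DMSO in MM1.S cells and 36.2 with AU-15330 and 44.5 with DMSO in NCI-H929 cells, while HA-POU2AF2 and the unnamed HA tag had no region there under either treatment. RPS12, bound in 8 lists with AU-15330 and 10 with DMSO, had a POU2AF1 level of 56.6 with AU-15330 and 63.7 with DMSO in MM1.S cells, and of 39.7 with AU-15330 and 27.8 with DMSO in NCI-H929 cells. Of its 7 ratios, 4 were below 1.

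RPL5 and RPL11 form a complex with a ribosomal RNA of the large subunit and bind MDM2 when ribosome assembly is disturbed. RPL11 was bound in 6 lists with AU-15330 (levels 8.40 to 20.4, median 9.99) and in all 10 with DMSO (7.06 to 22.7, median 9.68). RPL5 was bound in 4 lists with AU-15330 (8.82 to 22.1, median 9.92) and in 9 with DMSO (5.74 to 11.6, median 7.99), and its highest level with AU-15330 was that of the POU2F3 antibody in NCI-H1048 cells, 22.1 against 5.74 with DMSO. The ranges overlapped between treatments for both genes, and 3 of 6 ratios of RPL11 and 2 of 4 of RPL5 were below 1.

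RPS19, the gene most often mutated in Diamond-Blackfan anemia, was bound in 6 lists with AU-15330 (9.88 to 19.4, median 14.8) and 9 with DMSO (4.86 to 27.4, median 18.6), and 5 of its 6 ratios were below 1. RPS14, lost in the myelodysplastic syndrome with deletion of the long arm of chromosome 5, was bound in 4 lists with AU-15330 (6.58 to 40.5, median 17.03) and in all 10 with DMSO (5.16 to 19.7, median 10.9), and 3 of its 4 ratios were below 1. Only the POU2F3 antibody list of NCI-H1048 cells put RPS14 above its DMSO range with AU-15330, at 40.5 against 15.5 with DMSO. RPS6, whose protein is phosphorylated downstream of mTOR, was bound in 5 lists with AU-15330 (4.94 to 33.9, median 6.18) and 10 with DMSO (6.38 to 17.1, median 12.1), and 4 of its 5 ratios were below 1.

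RPL3, which reaches the peptidyl transferase center, was bound in 6 lists with AU-15330 (8.77 to 26.8, median 13.0) and 10 with DMSO (6.59 to 45.9, median 11.1), and 4 of its 6 ratios were below 1. RPSA, also known as the laminin receptor, was bound in 4 (6.88 to 14.2, median 12.1) and 9 (5.30 to 26.3, median 11.8), with 3 of 4 ratios below 1. The stalk proteins recruit translation GTPases. RPLP0 was bound in 6 lists with AU-15330 (7.90 to 19.1, median 14.5) and 9 with DMSO (7.30 to 27.0, median 13.9), and RPLP1 was bound in 4 (9.90 to 24.0, median 16.2) and 9 (4.41 to 34.2, median 13.4). Ratios were below 1 in 4 of 5 experiments for RPLP0 and in 3 of 4 for RPLP1. For each of these genes the levels with AU-15330 and with DMSO overlapped.

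Summits were placed relative to the canonical start, with negative positions upstream of it. With the POU2F3 antibody they lay upstream: the median position was -148.5 bases with AU-15330 and -101 with DMSO in NCI-H526 cells, and -83 under either treatment in NCI-H1048 cells. Over all bound genes the medians were upstream too, at -93 and -70 in NCI-H526 cells and -64 and -61 in NCI-H1048 cells. At ribosomal protein genes in NCI-H526 cells 23 of 26 summits with AU-15330 and 56 of 70 with DMSO were upstream, and in NCI-H1048 cells 63 of 77 and 48 of 60. In the HA libraries the median summits at these genes lay near or past the start, with single summits on both sides. For HA-POU2F3, 26 of 52 summits with AU-15330 and 28 of 67 with DMSO were upstream in NCI-H526 cells. In NCI-H1048 cells 13 of 35 and 8 of 41 were upstream, and for HA-POU2AF2 with DMSO 21 of 69. The median for HA-POU2F3 was -0.5 bases with AU-15330 and 11 with DMSO in NCI-H526 cells, and 25 with AU-15330 and 61 with DMSO in NCI-H1048 cells, and for HA-POU2AF2 with DMSO it was 47. Over all bound genes the HA-POU2F3 medians were -77 and -28 in NCI-H526 cells and -20.5 and 3 in NCI-H1048 cells, and that of HA-POU2AF2 was 38. POU2AF1 had a median of -52.5 bases with AU-15330 and 28 with DMSO in MM1.S cells, against -49 and -28 over all bound genes. In NCI-H929 cells its median was -32.5 with AU-15330 and 39 with DMSO, against -59 and -33. Where both summits lay within 1 kb of the start, the AU-15330 summit of POU2AF1 was the more upstream one at 41 of 68 genes in MM1.S and 39 of 62 in NCI-H929 cells. The share was 52.2% of all genes in each line. Median shifts were -21 bases (quartiles -106 and 32.5) and -36 (-115 and 41.8). For the POU2F3 antibody it was 14 of 24 (median -6) in NCI-H526 and 27 of 57 (0) in NCI-H1048 cells. HA-POU2F3 had 24 of 43 (-6) and 13 of 24 (-17.5), and IRF4 in MM1.S cells 9 of 22 (60). Over all genes these shares were 48.2% to 53.2%. IRF4 summits with DMSO had a median of 20 bases in MM1.S and -62 in NCI-H929 cells, against -24 and -35 over all bound genes. Apart from the AU-15330 lists of HA-POU2AF2 and of IRF4 in NCI-H929 cells, with 2 and 1 genes, 57.7% to 92.7% of summits were within 200 bases of the start, against 42.6% to 64.1% of those at all bound genes.

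**Figure D5:**
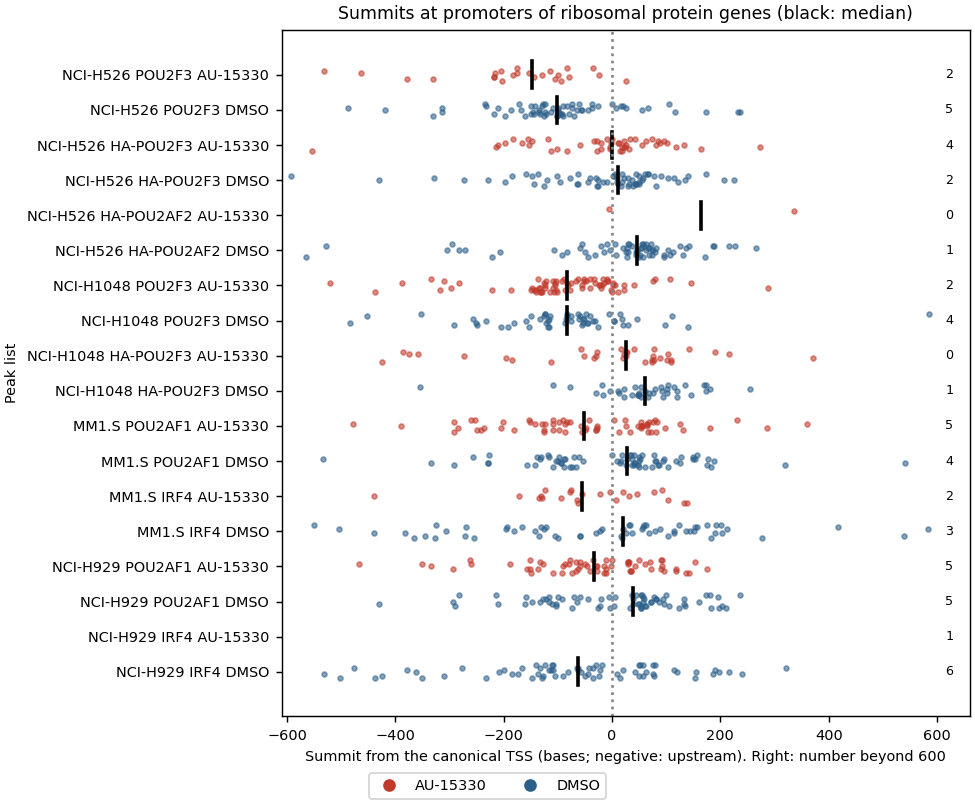
Position of the summit of the strongest region at each bound ribosomal protein gene (points) relative to the canonical start (x axis, bases, negative upstream) in the 18 lists with summits (y axis, AU-15330 above DMSO); black bars are medians over these genes and the number at the right counts summits beyond 600 bases. Points of the POU2F3 antibody lie mostly left of the start, with medians from -148.5 to -83, and those of HA-POU2F3 lie around it, with medians from -0.5 to 61. Over all bound genes, not drawn, the medians run from -93 to -61 and from -77 to 3.

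Genes of both subunits were bound in 18 of 20 lists, and the 1 or 2 genes of the other lists were of the large subunit. With DMSO, genes of the large and small subunit were bound at 91.3% and 90.3% for the POU2F3 antibody in NCI-H526 cells and at 76.1% and 80.6% in NCI-H1048 cells. The shares lay further apart for IRF4 in MM1.S cells, at 26.1% and 41.9% with AU-15330 and 78.3% and 93.5% with DMSO, and for the POU2F3 antibody in NCI-H526 cells with AU-15330, at 26.1% and 45.2%. Small nucleolar RNA genes lie within 28 of the 77 ribosomal protein genes on the same strand (36.4%), against 1.28% of all protein-coding genes, so a region at such a start is also at the start of a small nucleolar RNA host.

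A ribosomal protein gene that the symbols do not find is FAU, whose protein is made as a fusion with a ubiquitin-like protein. FAU was bound in 3 lists with AU-15330 and 7 with DMSO. The symbol rule's other finds had 11 of 20 lists for RPS10-NUDT3, 9 for RPL36A-HNRNPH2 and 9 for RPL17-C18orf32, the same numbers as RPS10, RPL36A and RPL17, with which they share starts, and 8 for RPS19BP1.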

How the data were processed

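ChIP-seq peak lists of 20 libraries were used, 1 per condition. Per the labels and the study's methods, trimming by the authors used Trimmomatic 0.39, alignment to GRCh38 used BWA, and reads were filtered with SAMtools and Picard, with regions called per library by MACS2 at a q-value of 0.05 and blacklisted regions removed. The deposited lists give a score, the fold enrichment at the summit, its −log10 p-value and −log10 q-value, and, in 18 lists, an offset that places the summit within its region. The score, a whole-number form of the q-value, was not used.

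Regions on chromosomes 1 to 22 and X were joined to GENCODE 44 starts. Summit pileup was recovered from fold and p-value for at least 99.9% of regions in the 18 lists, and depth from the background pileup and the caller's genome of 2.7 Gb, so fold and p-value rank regions within a list only. Level and fold have no replicate error here. The method was tested on simulated data. Python 3.11.15, numpy 2.4.6, pandas 2.3.3, scipy 1.17.1 and matplotlib 3.10.9 were used.

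The genes and lists were chosen with earlier results of these data known. Named genes are the 3 of highest fold per list, those in the most lists, up to 5 bound under 1 treatment alone per experiment, RPL5, RPL11, RPS19, RPS14, RPL3, RPS6, RPSA, RPLP0, RPLP1, FAU and the other finds of the symbol rule. Some genes that this rule names are counted in all totals but not reported here by name. Alternatives were canonical starts, windows of 500 bases and 2 kb, summits in the window, a −log10 q-value of at least 5, equal numbers of strongest regions, overlap of the regions themselves, every gene of the symbol rule, and genes without a neighbouring start.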

Additional observations from a re-analysis of the deposited data

Results flagged for a closer look

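With the POU2F3 antibody, the number of bound ribosomal protein genes differed between AU-15330 and DMSO by 17 in NCI-H1048 cells, where more were bound with AU-15330, and by -44 in NCI-H526 cells, where fewer were. The pair was singled out because the 2 lines moved in opposite directions under the same antibody and treatment. With equal numbers of strongest regions in both lists of a pair, more were bound with AU-15330 in both lines. The difference was 16 in NCI-H1048 cells (76 against 60 with DMSO), where all genes had 59.3% against 41.6%. It was 11 in NCI-H526 cells (26 against 15 with DMSO), where all genes had 18.5% against 11.4%. Levels, which scale for depth, differed in direction between the lines at genes bound in both lists. The median ratio of AU-15330 to DMSO was 0.721 in NCI-H526 cells, with 24 of 26 ratios below 1. It was 2.59 in NCI-H1048 cells, with all 60 above 1. Over all genes the medians were 0.777 and 2.14. With 1 library per condition the difference between the lines was not tested. In NCI-H1048 cells the AU-15330 library was the deeper one, at 40.6 M tags against 30.6 M with DMSO, and in NCI-H526 cells the shallower one, at 26.9 M against 53.6 M. The part of depth in the difference was not tested.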

How the results depend on the processing

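Each condition has 1 library, so no replicate could be left out, and depth limits the lists with few regions. No paired analysis was possible because no group has replicates. Windows of 500 bases and 2 kb, summits in the window, every gene of the symbol rule and an overlap of 1 base kept all counts within 1.5 times. Where a value below differs, the cause was not tested.

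With a −log10 q-value of at least 5, bound genes numbered, with AU-15330, 14 for POU2F3, 29 for HA-POU2F3 and 0 for HA-POU2AF2 (all NCI-H526), 16 for HA-POU2F3 and 0 for the unnamed HA tag in NCI-H1048 cells, 6 for IRF4 in MM1.S and 0 in NCI-H929 cells, and with DMSO 22 for HA-POU2F3 and 13 for the unnamed HA tag in NCI-H1048 cells and 40 for IRF4 in MM1.S cells. In the NCI-H526 experiments, genes bound in both lists then numbered 14 (21.9% kept, against 20.7% of all genes), 23 (40.4% against 26.9%) and 0 (against 0.599%). They numbered 11 (50% against 15.5%) and 0 (against 1.81%) in the NCI-H1048 HA experiments. For IRF4 they numbered 4 (10% against 8.76%) in MM1.S and 0 (against 0.385%) in NCI-H929 cells. The share bound was above that of all genes in 17 of 20 lists, and the share kept in 7 of 10 experiments. The change was -28 for HA-POU2F3 in NCI-H526, 30 for POU2F3 and -13 for the unnamed HA tag in NCI-H1048, and -15 for POU2AF1 in MM1.S cells.

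With the 1326 strongest regions of every list, bound genes numbered 1, 10 and 0 with AU-15330 and 1, 0 and 1 with DMSO for POU2F3, HA-POU2F3 and HA-POU2AF2 in NCI-H526 cells, 16 and 14 with AU-15330 and 4 and 0 with DMSO for POU2F3 and HA-POU2F3 in NCI-H1048 cells, and 1 with DMSO for the unnamed HA tag. They numbered 8 with AU-15330 and 8 with DMSO for POU2AF1, and 3 and 0 for IRF4, in MM1.S cells, and 9 and 2 for POU2AF1, and 0 and 0 for IRF4, in NCI-H929 cells. The share of ribosomal protein genes was above that of all genes in 13 of 20 lists. With equal numbers of strongest regions in both lists of a pair, the change turned to 11 for POU2F3 and 25 for HA-POU2F3 in NCI-H526, 28 for HA-POU2F3 and 2 for the unnamed HA tag in NCI-H1048, 20 for IRF4 in MM1.S, and 12 for POU2AF1 and 1 for IRF4 in NCI-H929 cells. It was -4 for HA-POU2AF2 and -1 for POU2AF1 in MM1.S cells. The shares of all genes changed in the same direction in every experiment. Genes bound in both lists numbered 9, 22 and 0 in NCI-H526, 7 and 0 in the NCI-H1048 HA experiments, 2 for IRF4 in MM1.S and 0 in NCI-H929 cells, and the share kept was above that of all genes in 5 of 10 experiments.

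AU-15330 regions were also required to cover at least 50% of a DMSO region. In NCI-H526 cells 11 genes were then kept for POU2F3 (15.7%, against 17.1% of all genes) and 30 for HA-POU2F3 (44.8% against 23.9%). For IRF4, 7 were kept in MM1.S (10.8% against 10.2%) and 0 in NCI-H929 cells (against 0.294%). With canonical starts IRF4 with AU-15330 in NCI-H929 cells had 0 genes, and 0 kept. Leaving out genes with a neighbouring start, chosen after seeing the data, gave 1 bound and 1 kept gene for HA-POU2AF2 with AU-15330 and a change of -3 for HA-POU2F3 in NCI-H1048 cells.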
